A study of Mus musculus with 12 samples.

Results

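The 4 MC38/hPD-L1 tumors of the Fc control group were taken out of the 12 sequenced tumors and described without reference to the treated animals. All 4 tumors that the labels give the Fc control treatment were used, numbered replicate 1 to replicate 4 as labelled. Each came from a female C57BL/6NJ mouse (labelled C57BL6), 8 to 10 weeks old when the study began. On day 8 after implantation the mice received a single intraperitoneal dose of 75 µg Fc control, and the tumors were collected 72 h later. The other 8 tumors of the series, 4 given ALPN-202 and 4 given anti-PD-L1, were not analysed here. MC38 is a mouse colorectal adenocarcinoma line, and the MC38/hPD-L1 cells implanted under the skin of the flank had been made to express human PD-L1 by viral transduction and puromycin selection. The table lists mouse genes, so the human transgene itself has no line in it, and the hosts were immunocompetent mice with their own mouse PD-L1.

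A subcutaneous tumor is a mixture of cancer cells, the leukocytes that enter it, the fibroblasts and vessels that it recruits, and whatever skin, fat or muscle is cut out with it. MC38 is widely used in immuno-oncology because it carries many mutations and draws in myeloid cells and T cells. Interferon gamma from activated lymphocytes raises MHC molecules, chemokines and PD-L1 on tumor and myeloid cells, and PD-L1 in turn inhibits T cells through PD-1. In bulk tumor RNA, fewer cells of a type and less RNA per cell cannot be told apart.

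Total counts were 6790794, 8388493, 10692817 and 9546277 for replicates 1 to 4. Levels are given as TPM, a transcript abundance that the authors corrected for gene length and library total. Of 32792 gene names, 14131 had a mean of 1 TPM or more over the 4 tumors, 12713 of these reached 1 TPM in every tumor, and 12582 names had no count in any tumor. All results are descriptions of 1 group of 4 mice, and no test between groups was made. Before the results, 2 of the 4 tumors need describing. In replicate 1 long genes were low and short genes high, and replicate 4 had high levels of adipocyte and simple epithelial keratin genes. For several lists in which either tumor differed most from the rest, the level is given with and without it. Other such lists, the immediate early genes among them, are given with all 4 tumors only.

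Apart from Mir5105 and genes of the mitochondrial genome, described below, the tumor transcriptome was led by cytoskeletal, calcium-binding, translation and antigen presentation genes. Lgals1, which encodes the secreted lectin galectin-1, had 11164, 8677, 7358 and 7057 TPM in replicates 1 to 4, a mean of 8564 TPM. S100a6, a calcium-binding protein of dividing and mesenchymal cells, followed at a mean of 7738 TPM. B2m, the invariant light chain of MHC class I, had 6820, 7591, 6728 and 7668 TPM, and with 7202 ± 496 TPM (SD, n = 4) it varied little between tumors. Fth1, the ferritin heavy chain that stores iron, had 4457 ± 495 TPM, and Vim, the intermediate filament of mesenchymal cells, had 2583, 3973, 4918 and 4427 TPM. Vim was lowest in replicate 1, whereas S100a6 and Lgals1 were highest there.

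**Figure D1:**
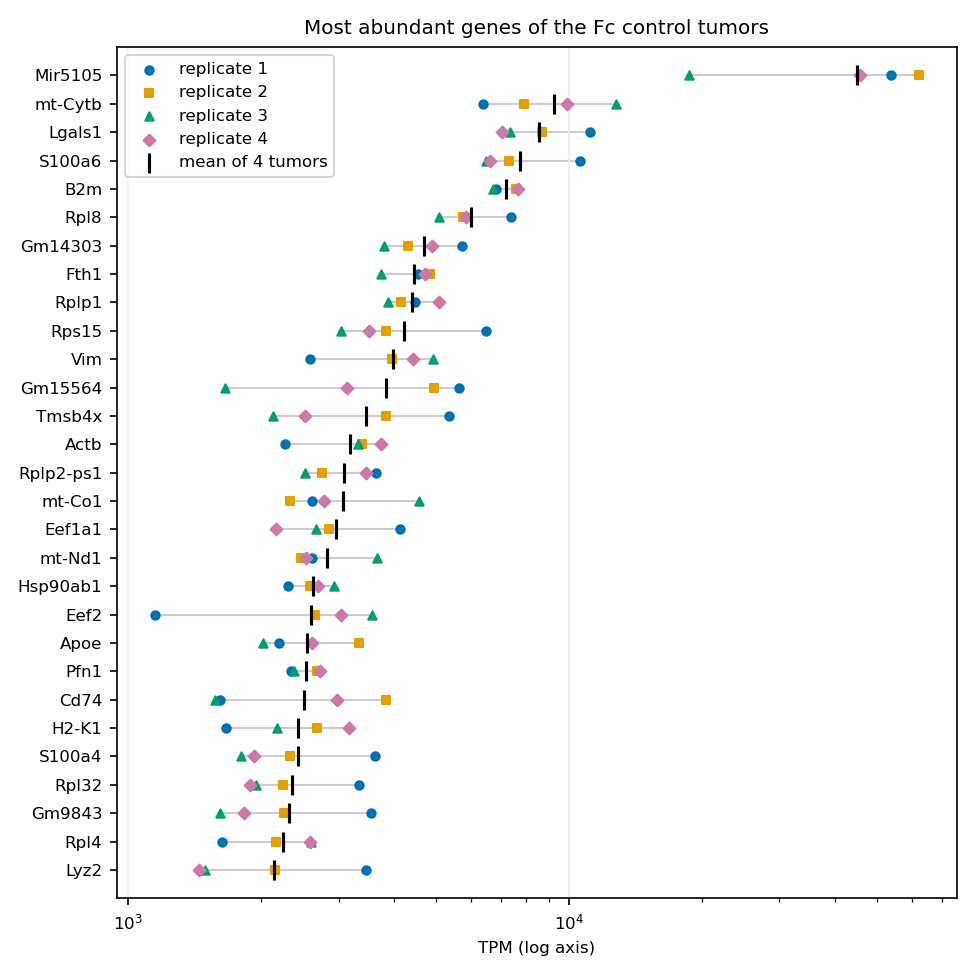
TPM of the genes reported here among the 30 most abundant, in each Fc control tumor on a log axis, ordered by the mean of the 4 tumors (black bar). Mir5105 stands at a mean of 45076 TPM, the other genes shown lie between 2137 and 9220 TPM, and replicate 3 is lowest for Mir5105 and Gm15564.

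Further genes among the 30 most abundant were actin and its regulators, chaperones and translation factors. Actb, cytoplasmic beta-actin, had 3178 ± 636 TPM. Tmsb4x, thymosin beta 4, which binds actin monomers, had 3456 ± 1449 TPM, and Pfn1, profilin, which feeds actin filaments, had 2529 ± 200 TPM. Hsp90ab1, a cytosolic chaperone, had 2626 ± 257 TPM. The elongation factors Eef1a1 and Eef2 had mean levels of 2953 and 2602 TPM and moved in opposite ways between tumors. Eef1a1 was 4125 TPM in replicate 1 and 2160 TPM in replicate 4, and Eef2 was 1151 TPM in replicate 1 and 3579 TPM in replicate 3. Apoe, the lipid carrier that macrophages secrete, had 2193, 3330, 2020 and 2615 TPM, and S100a4, a marker of motile cells, had a mean of 2422 TPM.

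Expression was concentrated in few genes. The 10 most abundant genes held 10.2% of the mean TPM and the 100 most abundant 26.0%. By tumor, the 100 most abundant genes held 30.5%, 27.7%, 21.6% and 25.3% for replicates 1 to 4. Of the 100 genes, 14 encode ribosomal proteins, 14 are pseudogenes or predicted genes, 5 are proteins of the mitochondrial genome and 67 fall in none of these classes. Without the length correction, that is by CPM, counts scaled to the library total alone, 62 of the 100 remained among the 100 most abundant genes, which then held 15.7% of the counts.

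The 84 ribosomal protein genes summed to 6.32%, 4.36%, 3.85% and 4.22% of TPM in replicates 1 to 4. They were led by Rpl8 at 5998 ± 973 TPM, Rplp1 at 4395 TPM and Rps15 at 4219 TPM, and Rpl32 and Rpl4 were also among the 30 most abundant genes. Replicate 1 held the largest share, and these genes are short. The 13 protein genes of the mitochondrial genome, subunits of the respiratory chain, summed to 1.4%, 1.61%, 2.65% and 1.93%. mt-Cytb, a subunit of complex III, had 6363, 7888, 12766 and 9865 TPM, mt-Co1 of complex IV a mean of 3073 TPM, and mt-Nd1 of complex I a mean of 2820 TPM. All 3 were highest in replicate 3.

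The highest value of all was 45076 ± 18812 TPM for Mir5105, from a mean count of 15467 and a short recovered length. Mir5105 had 53696, 62120, 18688 and 45802 TPM in replicates 1 to 4, at a length of 82 bases recovered from the ratio of count to TPM. It held 4.51% of the mean TPM but 0.175% of the counts. Gm15564, an antisense transcript, had 5615, 4949, 1659 and 3137 TPM, and Lars2, the mitochondrial leucyl-tRNA synthetase, had 2546, 2549, 794 and 1772 TPM. All 3 genes were lowest in replicate 3, and the ratio of Mir5105 to Lars2 stayed between 21.1 and 25.9 in the 4 tumors. The mitochondrial ribosomal RNA mt-Rnr2 was also lowest there, at 780, 858, 437 and 827 TPM.

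In the NCBIM37 genome, the build of the files, Lars2 lies on chromosome 9 from 123276058 to 123371782 on the plus strand and Gm15564 on chromosome 16 from 35966838 to 35983316 on the minus strand. A stretch of 167 bases in the last exon of Lars2, within its annotated UTR (chr9:123371141-123371307), matched a stretch of Gm15564 (chr16:35981741-35981907) at all but 4 positions, an identity of 97.6%, and 71 of the matched bases lie in an exon of Gm15564. Reads from such a stretch cannot be assigned to either gene with certainty, and how far it sets their counts was not tested. With Mir5105, Gm15564 and Lars2 left out and the rest rescaled, the level of each of 39 gene lists rose by 0.01 to 0.07 on the log2 scale.

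Levels of genes with many near-identical copies are uncertain in these files. Gapdh, the glycolytic enzyme often used as a reference gene, had 10.2, 23.9, 41.3 and 31.3 TPM, rank 6163 of all genes, and was singled out after its values were seen. Aldoa, Ldha and Pkm (listed as Pkm2), enzymes of the same pathway, had 1962 ± 67.2, 1972 ± 206 and 1695 ± 294 TPM. Ppia, a prolyl isomerase that is also used as a reference and was picked in the same way, had 12.9 TPM. Among the pseudogenes and predicted genes, Gm14303 had 4681 TPM and Rplp2-ps1 had 3092 TPM, both in the 30 most abundant genes. The assignment of reads between a gene and its copies was made upstream, and its part in these levels was not tested.

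Mesenchymal genes were abundant in the tumors and intestinal epithelial genes were nearly absent. The level of a list is given as the mean over its members of log2(TPM + 1). The mesenchymal list stood at 5.21, 5.99, 6.46 and 6.16 in replicates 1 to 4, and 8 of its 9 members reached 1 TPM in every tumor. Its mean was 5.95, and 6.2 ± 0.24 without replicate 1. Besides Vim it was led by Sparc, a matrix protein that binds collagen, at 1248 ± 144 TPM, and by Fn1, fibronectin, at 188, 805, 1675 and 1182 TPM. The transcription factor Snai1, a repressor of E-cadherin, had 94.9 ± 29.3 TPM. Fibroblasts express these genes too, so the list does not mark cancer cells alone. Zeb1 had no count in any tumor, and its annotation overlaps 3 other entries.

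The intestinal epithelial list stood at 0.29, 0.36, 0.46 and 0.46, and 10 of its 11 members had a mean under 1 TPM. Cdx2 and Hnf4a, transcription factors that define the intestinal lineage, and Fabp2, a fatty acid-binding protein of enterocytes, had no count in any tumor. The annotation of Hnf4a overlaps 2 other entries and that of Fabp2 overlaps 1, whereas that of Cdx2 overlaps none. The part of these overlaps in the absence of counts was not tested. A count of 0 allows up to 3 counts per tumor, or 0.281 to 0.442 CPM at these depths, as counting error only. Lgals4, an epithelial galectin, was the exception at 3.37, 5.13, 6.85 and 9.02 TPM, while the stem cell marker Lgr5 had 0.597 TPM and the cadherin Cdh17 0.321 TPM. Apart from Lgals4, the intestinal markers of the labelled colorectal origin were thus at or near 0.

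The pan-epithelial list was low in 3 of the 4 tumors, at 0.57, 0.80 and 0.93, and stood at 2.76 in replicate 4. Krt19, a keratin of simple epithelia, had 0.317, 0.931, 1.1 and 41.6 TPM, and Krt18, another such keratin, had 0.892, 0, 1.43 and 29.7 TPM. Krt8, the partner of Krt18 in filaments, had 0.277, 0.271, 0.989 and 15.1 TPM. In replicate 4 these keratins therefore lay far above the other tumors, which did not overlap with it. Cdh1, E-cadherin, differed less, at 4.51, 7.62, 6.75 and 9.79 TPM. Without replicate 4 the pan-epithelial level was 0.76 ± 0.18.

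Genes whose mutated forms are known neoantigens of MC38 were expressed in every tumor. The 6 genes of this list stood at 4.99, 5.62, 6.01 and 5.76, and all 6 reached 1 TPM in every tumor. Aatf had 103 ± 30.4 TPM, Reps1 76.7 ± 18.3 TPM, Dpagt1 68.9 ± 18.6 TPM and Cpne1 51.7 ± 17.4 TPM. The counts do not separate mutated from normal copies. With the trend on gene length removed, the range of this list over the tumors fell from 1.02 to 0.27.

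Proliferation, glycolysis and hypoxia genes were high and even. All 15 cell cycle genes reached 1 TPM in every tumor, and the list stood at 6.68, 7.0, 7.22 and 6.99. Top2a, the topoisomerase of dividing cells, had 336 ± 75.6 TPM, Cdk1, the mitotic kinase, 300 ± 70.6 TPM, and Mcm3 and Pcna, parts of the replication machinery, 200 ± 46.8 and 183 ± 46.8 TPM. All 15 glycolysis and hypoxia genes were likewise expressed throughout, and the list stood at 6.96, 7.18, 7.43 and 7.25, lowest in replicate 1. The summed TPM of the list differed between tumors by a factor of 1.06. Aldoa, Ldha and Pkm led it, followed by the enolase Eno1 at 431 ± 52.3 TPM. The metallothioneins Mt1 and Mt2, which bind zinc and copper, had 1081 ± 167 and 819 ± 178 TPM, and Mt3, the neuronal form, 0.428 TPM. Immediate early genes, transcription factors and regulators that respond fast to stimuli, stood at 4.58, 5.48, 5.28 and 5.44, with Jun at 212 TPM and Junb at 165 TPM.

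Among the 26 cell type lists, the macrophage and monocyte list was highest, followed by the fibroblast list and the mesenchymal list. The macrophage list did not overlap with the fibroblast list in its range over tumors, and the mesenchymal list did not overlap with the skeletal muscle list, the next in order, but 23 of the 25 neighbours in the order overlapped. A list level depends on which genes were put in the list, so the order is a description. The same 13 lists stood in the upper 13 when the length trend was removed or replicate 3 was left out, and 12 of them without replicate 1, 2 or 4. With a pseudocount of 0.1 or with TMM-scaled CPM 12 of them remained, in both cases without the plasmacytoid dendritic cell list. With members under 0.1 TPM left out 11 remained, without the NK cell and plasmacytoid dendritic cell lists. Replicate 1 was lowest for 16 of the 26 lists, and replicate 4 was highest for 10. Over all 14131 genes with a mean of 1 TPM or more, 61.3% were lowest in replicate 1 and 21.4% highest in replicate 4.

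**Figure D2:**
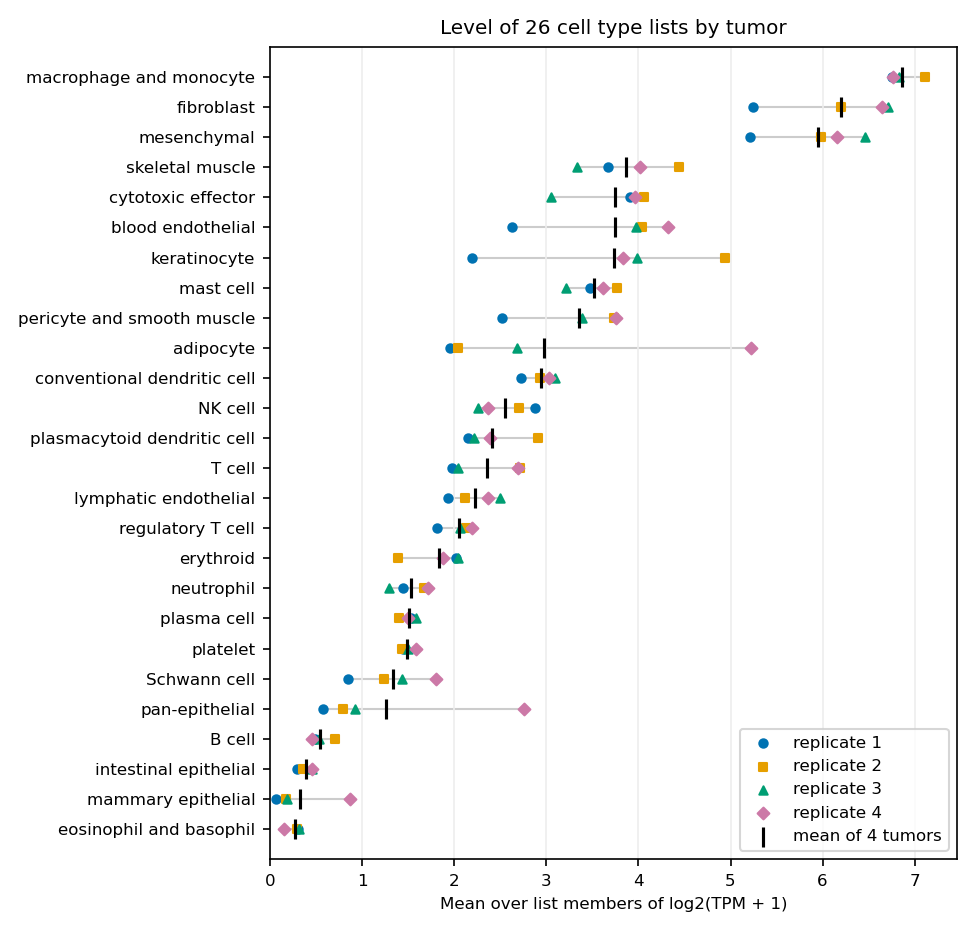
Mean over list members of log2(TPM + 1) for 26 cell type lists in each Fc control tumor, ordered by the mean of the 4 tumors (black bar). The macrophage and monocyte list spans 6.75 to 7.11, replicate 4 is highest in the adipocyte (5.22) and pan-epithelial (2.76) lists, and replicate 1 is lowest in the fibroblast (5.25) and blood endothelial (2.63) lists.

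Macrophage genes made up the clearest leukocyte signal of the tumors. All 19 members reached 1 TPM in every tumor, and the list stood at 6.75, 7.11, 6.83 and 6.77. Lyz2, lysozyme of myeloid cells, had 3466, 2148, 1491 and 1444 TPM. The complement genes C1qa, C1qb and C1qc, which tissue macrophages express, had 1591 ± 324, 1573 ± 331 and 1106 ± 251 TPM, and all 3 were highest in replicate 2. Lyz2 differed from them in being highest in replicate 1. Csf1r, the receptor for the macrophage growth factor CSF-1, which was singled out after its values were seen, had 48.9, 174, 155 and 151 TPM, and replicate 1 lay below the other tumors.

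Both inflammatory and suppressive myeloid products were present. All 12 members of the myeloid effector and suppressor list reached 1 TPM in every tumor. Ccl2, the chemokine that attracts monocytes, had 1387, 674, 672 and 501 TPM, and Spp1, osteopontin, had 408 ± 70.1 TPM. Arg1, arginase, had 672, 275, 291 and 374 TPM and was higher than Nos2, inducible nitric oxide synthase, in every tumor. The ratio of Arg1 to Nos2 was 35.7 in replicate 1 and 6.46 to 7.93 in the others. These ratios were taken without removing the trend on gene length, by which long genes were low in replicate 1. Ccl5, a chemokine of activated T cells and macrophages, had 221, 234, 113 and 215 TPM, with replicate 3 below the rest.

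Antigen presentation genes formed the highest program lists. The MHC class I list summed to 13602 ± 1697 TPM, of which B2m made up 52.9%. H2-K1 and H2-D1, the classical heavy chains of the b haplotype, had 2423 ± 646 and 2026 ± 380 TPM, and their ratio was 0.999 to 1.29 across the tumors. Psmb8, an immunoproteasome subunit, had 602 ± 84.7 TPM. Its partner Psmb9 had no count in any tumor, and its annotation consists of 2 entries that overlap each other and Tap1. In this build, reads inside both entries cannot be assigned to either.

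The MHC class II list stood at 8.25, 9.08, 7.91 and 8.50. Cd74, the invariant chain that guides class II molecules, had 1613, 3839, 1570 and 2974 TPM, H2-Ab1 1590, 2268, 811 and 1352 TPM, and H2-Aa and H2-Eb1 mean levels of 1368 and 1036 TPM. All 7 members were highest in replicate 2 and 6 were lowest in replicate 3, and H2-Ab1 in replicate 3 lay below its level in every other tumor. With the length trend removed the class II list kept this order, at 8.35, 9.09, 7.86 and 8.46.

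Genes that interferon gamma induces were expressed in all 4 tumors. Of the 11 members of the list, 10 reached 1 TPM in every tumor, and the list stood at 6.56, 6.92, 6.69 and 7.08. Gbp2, a guanylate-binding GTPase of cell-autonomous immunity, had 796, 667, 575 and 662 TPM. Irf1, a transcription factor of interferon responses, had 529 ± 31.6 TPM, and the lymphocyte-attracting chemokine Cxcl10 had 533, 435, 434 and 570 TPM. Igtp, an immunity-related GTPase, had 347 ± 82.4 TPM. Ifng itself, which was named for its role after the values were seen, had 11.6, 10.7, 4.80 and 13 TPM, with replicate 3 below the other tumors, whereas Irf1 differed between tumors by no more than 494 to 570 TPM.

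All 12 members of the type I interferon list reached 1 TPM in every tumor. The list stood at 5.47, 5.34, 5.64 and 5.60. Isg15, a ubiquitin-like modifier, had 463, 245, 222 and 267 TPM, and replicate 1 lay above the others. Irf7, the factor that amplifies type I interferon, had 122 ± 13.9 TPM, Oasl2 116 ± 47.0 TPM and Ifit3 67.0 ± 11.6 TPM.

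Promoter windows of 4 of these genes are shown because they hold a motif of interferon-stimulated response elements. The letters GAAA, any 2 bases and GAAA again were searched on both strands from 250 bases before to 50 bases after the RefSeq start (GRCm38.p6), and matches can overlap. They were found in 3.49% of 27025 promoters, in 5 of the 7 promoters found for the interferon gamma list, in 5 of 9 for the type I list and in 1 of 8 for the MHC class I list. Capitals mark the matches, each window runs 5′ to 3′ on the strand of the gene, and the Isg15 window holds 3 overlapping matches. A match is a description of the letters and not a shown binding site.
B2m (chr2:122147503-122147602, plus strand): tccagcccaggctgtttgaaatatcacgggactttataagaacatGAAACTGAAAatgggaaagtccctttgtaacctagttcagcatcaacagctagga
Gbp2 (chr3:142620559-142620658, plus strand): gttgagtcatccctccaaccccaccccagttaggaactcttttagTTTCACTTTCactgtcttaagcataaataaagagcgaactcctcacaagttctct
Cxcl10 (chr5:92349040-92349139, minus strand): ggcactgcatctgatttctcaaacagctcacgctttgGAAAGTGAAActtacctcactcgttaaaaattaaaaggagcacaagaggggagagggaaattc
Isg15 (chr4:156200842-156200941, minus strand): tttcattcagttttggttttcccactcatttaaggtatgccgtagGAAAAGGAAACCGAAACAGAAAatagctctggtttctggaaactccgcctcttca

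T cell genes were present at a few TPM. The T cell list stood at 1.98, 2.72, 2.04 and 2.70, and 12 of its 15 members reached 1 TPM in every tumor. Cd2, an adhesion receptor, had 9.53, 13.4, 7.74 and 10.6 TPM, and the T cell receptor chains Cd3g and Cd3d had 10.1 ± 4.56 and 9.08 ± 3.54 TPM. Lck, the kinase that starts T cell receptor signaling, had 9.04 ± 2.17 TPM. The lineage genes were named for their role: Cd8a, a chain of the coreceptor of cytotoxic T cells, had 5.19, 10.4, 4.56 and 7.98 TPM, and Cd4, the coreceptor of helper T cells, had 1.45, 3.70, 1.79 and 2.41 TPM. Cd8a exceeded Cd4 in every tumor, by a ratio of 2.54 to 3.59.

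T cell genes were far below macrophage genes in every tumor. The ratio of Cd3e, another T cell receptor chain, to Csf1r was 0.0321 to 0.0545. The level ranges of the T cell and macrophage lists did not overlap. In the order of the 26 lists, T cells followed plasmacytoid dendritic cells, and their range overlapped with that of the lymphatic endothelial list, the next in order.

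Cytotoxic genes stood above the T cell genes in level. The cytotoxic effector list was at 3.91, 4.06, 3.05 and 3.97, so that replicate 3 lay below the other tumors, also with the length trend removed, where it was at 3.07. Gzmc, granzyme C, had 202, 134, 64.0 and 150 TPM, and Gzmb, granzyme B, 44.0, 44.8, 27.5 and 38.0 TPM. Nkg7, a protein of cytotoxic granules, had 32.1 ± 10.8 TPM, and Gzma, granzyme A, had 23.3, 18.4, 2.03 and 16.8 TPM. Gzmc was 2.33 to 4.60 times the level of Gzmb.

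The NK cell list rested on Klra4, a member of the Ly49 receptor family, which made up 83.5% of its summed TPM. Klra4 had 327, 123, 138 and 89.7 TPM, while Klrd1, the CD94 chain shared by NK cells and CD8 T cells, had 21.5, 14.1, 6.80 and 9.64 TPM. Eomes, a transcription factor of NK cells and T cells, had 4.17 TPM. Ly49 genes are near-identical copies of each other, so the assignment of reads to Klra4 is uncertain. The regulatory T cell list stood at 1.81, 2.12, 2.06 and 2.19, led by the costimulatory receptor Tnfrsf4 at 14.4 ± 3.48 TPM. Foxp3, which defines these cells and was named for its role, had 0.326, 1.28, 1.69 and 1.66 TPM, a mean count of 20.5.

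**Figure D3:**
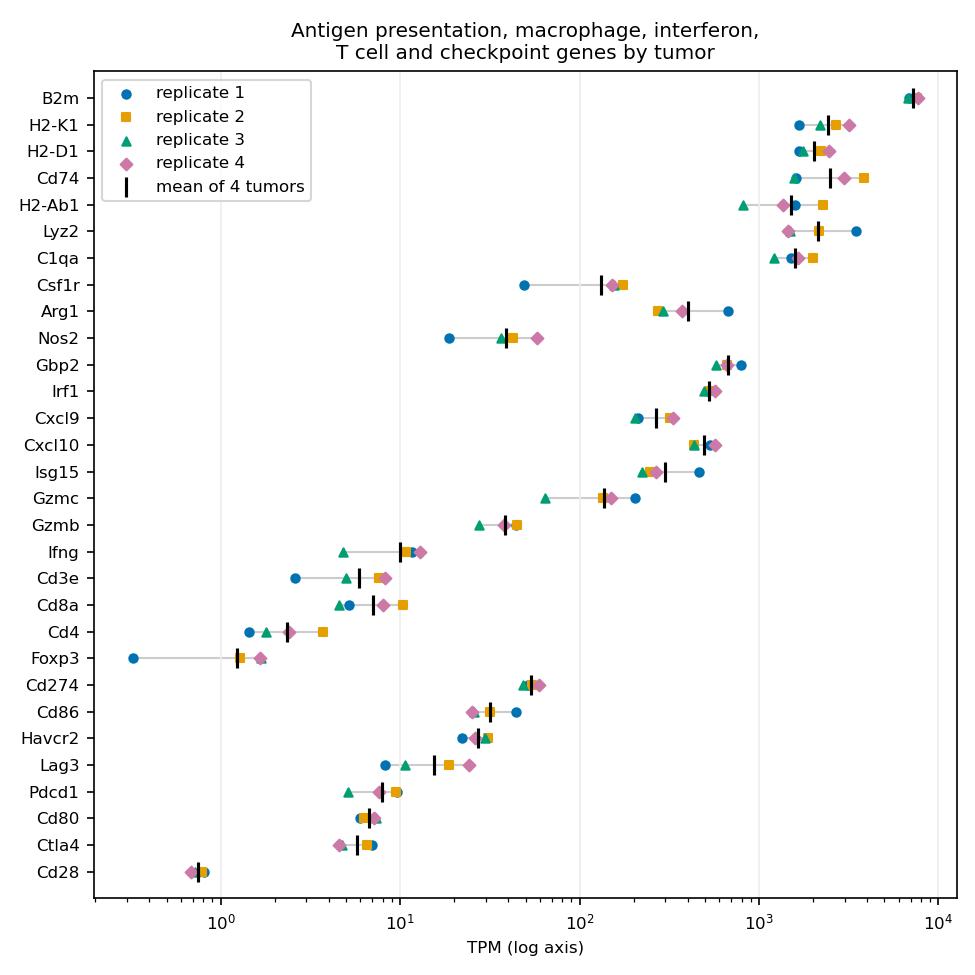
TPM of 30 genes of antigen presentation, macrophages, interferon responses, T cells and checkpoints in each Fc control tumor on a log axis, with the mean of the 4 tumors (black bar). Cd274 spans 48.3 to 59.6 TPM, Cd28 stands near 0.75 TPM in all 4 tumors, and replicate 1 is lowest for Csf1r, Nos2, Cd3e and Foxp3.

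Genes of the PD-1, CTLA-4 and CD28 axis, which the study's agents address, were led by ligands. Mouse Cd274, which encodes PD-L1, had 51.4, 54.4, 48.3 and 59.6 TPM, and Pdcd1lg2, which encodes PD-L2, had 13.1, 7.13, 6.92 and 11.7 TPM. Their receptor gene Pdcd1 had 9.59, 9.51, 5.09 and 7.66 TPM, below Cd274 in every tumor but above Pdcd1lg2 in replicate 2. Cd86 and Cd80, the B7 ligands that CD28 and CTLA-4 share, had 31.7 ± 8.83 and 6.69 ± 0.651 TPM, and Cd86 exceeded Cd80 in every tumor. Cd28, the costimulatory receptor, had 0.804, 0.787, 0.718 and 0.679 TPM, a mean count of 13.8, and Ctla4, its inhibitory counterpart, 5.72 ± 1.24 TPM.

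The other members of this list were inhibitory or costimulatory receptors. Havcr2, which encodes TIM-3 and is also expressed by myeloid cells, had 27.2 ± 3.94 TPM. Lag3, an inhibitory receptor that binds MHC class II, had 8.24, 18.7, 10.7 and 24.2 TPM, and Tigit had 3.11, 6.09, 3.24 and 8.73 TPM. Both were higher in replicates 2 and 4 than in replicates 1 and 3. Icos, a costimulatory receptor, was split in the same way, with 3.08, 7.92, 2.96 and 7.71 TPM, while its ligand Icosl had 11.5 ± 2.47 TPM. The list as a whole stood at 3.34, 3.58, 3.23 and 3.60.

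The mast cell list was the highest leukocyte list after the macrophage and cytotoxic effector lists. Tpsb2, tryptase, had 75.5, 98.8, 39.6 and 76.5 TPM, and the chymases Mcpt4 and Cma1 had 48.6 ± 16.0 and 36.7 ± 10.3 TPM. Cpa3, the carboxypeptidase of mast cell granules, had 20.6 ± 3.86 TPM. All 4 protease genes were highest in replicate 2 and lowest in replicate 3. The list stood at 3.47, 3.76, 3.22 and 3.61.

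The dendritic cell lists were led by genes that other cells share. In the conventional dendritic cell list, 8 of 13 members reached 1 TPM in every tumor, and the median member had a mean of 3.97 TPM. Fscn1, an actin-bundling protein of mature dendritic cells and of many tumor cells, had 123, 282, 355 and 372 TPM and made up 64.0% of the summed TPM of its list. Itgax, the integrin CD11c, had 63.9 ± 29.8 TPM, Irf8, a factor of myeloid and dendritic cells, 53.7 ± 7.92 TPM, and Batf3, a factor of cross-presenting dendritic cells, 12.9 ± 4.24 TPM. The plasmacytoid list rested on Cox6a2, a subunit of cytochrome c oxidase that muscle also expresses and whose annotation overlaps Itgad, at 160 ± 22.0 TPM. Siglech, the surface marker of plasmacytoid cells, had 0.492 TPM.

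Neutrophil, B cell, plasma cell and eosinophil genes were low. Of the neutrophil list, Il1r2, a decoy receptor that macrophages also express, led with 20.2 ± 4.93 TPM, Csf3r, the receptor for granulocyte growth factor, had 8.22 TPM, S100a9 and S100a8, calcium-binding proteins of neutrophils, had 7.36 ± 3.42 and 6.53 ± 2.35 TPM, and Ngp and Camp, granule genes of immature neutrophils, had no count. Only 1 of 8 B cell genes reached 1 TPM, Cd79b with 4.01, 8.54, 2.18 and 1.43 TPM, and the plasma cell list rested on Sdc1, a syndecan that epithelial and tumor cells also carry, at 80.1 ± 3.70 TPM. No member of the eosinophil and basophil list reached a mean of 1 TPM, and Epx, eosinophil peroxidase, had no count. Hbb-b1, beta-globin of red cells, had 18.7 ± 7.04 TPM. Of the platelet list, Pf4, which macrophages can also express, had 80.5 ± 27.0 TPM, and the platelet receptor genes Gp9 and Gp6 had no count. The annotation of Gp6 overlaps 2 other entries.

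Fibroblast genes were the highest of the stromal groups, and the collagen genes named here were low in replicate 1. All 13 members reached 1 TPM in every tumor. Col3a1, a fibrillar collagen, had 398, 1109, 1704 and 1405 TPM, Col1a1, the main chain of type I collagen, 69.7, 619, 492 and 612 TPM, and Col1a2, its partner chain, 76.5, 475, 390 and 440 TPM. Dcn, decorin, another matrix gene, had 672, 559, 706 and 592 TPM and did not show this drop. Among genes of 4605 to 5958 bases, the median deviation of replicate 1 from the 4-tumor mean was -0.71 on the log2 scale. Col1a1 and Col3a1, at 5930 and 5564 bases, differed 8.88-fold and 4.28-fold between highest and lowest tumor. The part of gene length in these drops was not tested. The list stood at 5.25, 6.19, 6.71 and 6.64, and at 5.78, 6.15, 6.37 and 6.49 with the length trend removed. Without replicate 1 its mean level was 6.51 ± 0.28.

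Endothelial and mural genes were present in every tumor, at lower levels than fibroblast genes. Plvap, a protein of fenestrated vessels, had 33.7, 87.2, 73.0 and 116 TPM, and Pecam1, the adhesion molecule CD31, had 18.9, 52.1, 39.7 and 57.2 TPM. Egfl7, an endothelial matrix protein, had 35.9 ± 8.88 TPM, and Eng, endoglin, 27.1 ± 12.3 TPM. The blood endothelial list stood at 2.63, 4.04, 3.97 and 4.33, and 10 of its 14 members were highest in replicate 4. Without replicate 1 the level was 4.11 ± 0.19. The lymphatic list rested on Pdpn, podoplanin, which fibroblasts and tumor cells also express, at 226 ± 52.3 TPM, whereas Prox1, the factor that defines lymphatic endothelium, had 0.0144 TPM. Acta2 and Tagln, genes of contractile mural cells and myofibroblasts, had 65.3 ± 31.3 and 40.4 ± 14.6 TPM, and Pdgfrb, the receptor of pericytes, had 29.4 ± 16.0 TPM.

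Adipocyte genes separated replicate 4 from the other tumors. The adipocyte list stood at 1.96, 2.04, 2.68 and 5.22, and all 12 members were highest in replicate 4. Cfd, adipsin, had 58.4, 25.2, 96.7 and 1155 TPM, and Fabp4, the fatty acid-binding protein of adipocytes and some macrophages, had 84.7, 87.9, 116 and 832 TPM. Adipoq, the hormone adiponectin, had 6.38, 2.08, 8.11 and 69.8 TPM, and Retn, resistin, had 0.892, 0.873, 3.39 and 65.3 TPM. Replicate 4 thus did not overlap with the others for any of these genes. The summed TPM of the list was 709 over the 4 tumors and 183 without replicate 4.

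Genes of simple epithelium, and some of mammary epithelium, were highest in the same tumor. Of the 12 pan-epithelial genes, 11 were highest in replicate 4, and of the 11 mammary genes, 5 were highest there, 1 was highest in replicate 2 and 5 had no count. The mammary list stood at 0.07, 0.17, 0.19 and 0.87, and at 0.14 ± 0.07 without replicate 4. Wfdc18 (listed as Expi), a milk protein gene, had 0, 0.267, 0.243 and 9.91 TPM, and Csn3, kappa-casein, had 0.571, 0.419, 0.637 and 3.63 TPM. Prlr, the prolactin receptor, had 0.586 TPM, but the caseins Csn1s1, Csn1s2a and Csn2, the whey protein Wap and the oxidase Lao1 had no count in any tumor. Whether tissue from around the tumor was in this sample was not tested.

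Keratinocyte and muscle genes followed another order. The keratinocyte list stood at 2.19, 4.94, 3.98 and 3.84, a mean of 3.74 that was 4.25 ± 0.60 without replicate 1. Krt10 and Krt1, the keratins of differentiating epidermis, had 13.6, 162, 68.5 and 60.8 TPM and 2.45, 112, 41.6 and 25.9 TPM, and Krt14, a keratin of the basal layer, had 17.2, 105, 41.1 and 45.5 TPM. Replicate 2 was highest and replicate 1 lowest for all 12 members of the list. Krtdap, a protein of differentiating keratinocytes, had 39.9 ± 30.5 TPM. Skeletal muscle genes stood at 3.67, 4.44, 3.33 and 4.02, with Acta1, skeletal actin, at 67.5, 154, 76.2 and 112 TPM and Mylpf, a myosin light chain of fast fibers, at 62.3, 78.5, 17.8 and 25.2 TPM. Mbp, a myelin protein gene of Schwann cells, had 5.01 ± 2.11 TPM.

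As a check of the labels, the 4 Y-linked genes searched (Ddx3y, Eif2s3y, Kdm5d and Uty) had no count in any tumor, and Xist, the RNA that coats the inactive X chromosome, had 3.05, 13.7, 18.0 and 15.2 TPM.

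The spread of each gene between the tumors was taken as the SD of log2(TPM + 1) over the 4 tumors. Over the 14131 genes its median was 0.41, with 0.12 at the 5th percentile and 0.99 at the 95th, while counting error alone would give a median near 0.09. Of these genes, 52.9% differed by over 2-fold between the highest and the lowest tumor. Without replicate 1 the median SD was 0.23, so that this tumor set much of the spread, and without each of the others it was 0.41 to 0.47.

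**Figure D4:**
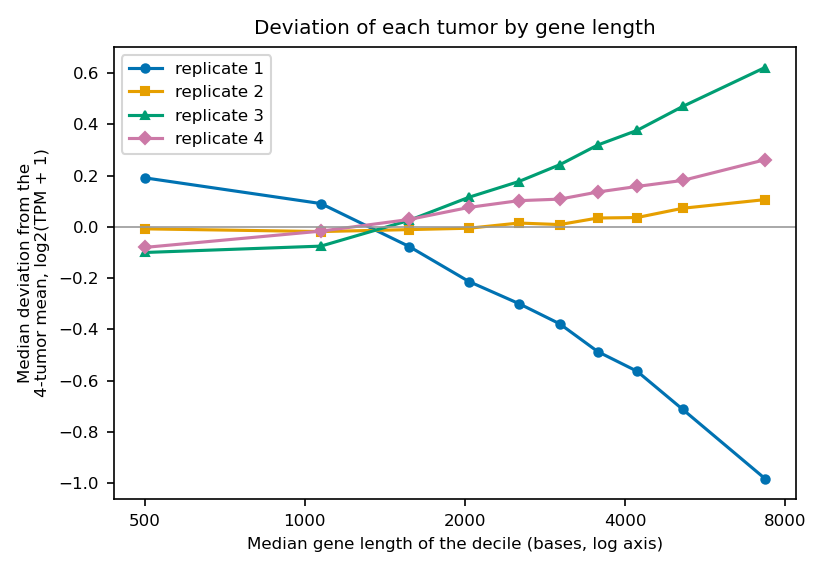
Median deviation of each tumor from the mean of the 4 tumors in log2(TPM + 1), against the median length of genes in 10 length classes (log axis). Replicate 1 falls from 0.19 to -0.98 with length, replicate 3 rises from -0.10 to 0.62, and replicate 2 stays between -0.02 and 0.11.

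Gene length separated the tumors. Among 14069 genes with a recovered length, the shortest class, with a median of 500 bases, deviated in replicate 1 by 0.19 on the log2 scale from the mean of the tumors, and the longest class, with a median of 7335 bases, by -0.98. Replicates 3 and 4 deviated by 0.62 and 0.26 for the longest class. The cause of this trend was not tested. On subtracting it, the lowest Pearson correlation of 2 tumors across genes rose from 0.914 to 0.928 and the highest from 0.975 to 0.980. The 3 pairs with replicate 1 lay at 0.914 to 0.940 and the 3 pairs without it at 0.973 to 0.975, across 14131 genes that share libraries and are not independent replicates.

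The 100 genes with the largest SD were in 49 cases genes with a mean count under 20. Among these were snoRNAs, microRNAs and a T cell receptor segment with few counts in any tumor, such as Snord66 with 0, 0, 14.9 and 15.1 TPM, Mir142 with 0, 19.1, 3.49 and 14.2 TPM, and Trbd1 with 0, 0, 0 and 18.9 TPM. Snord66 rested on 0, 0, 5 and 5 counts and Trbd1 on 1 count in all. Their SDs of 2.31 and 2.16 stand beside 0.43 and 0.69 for counting error alone, a figure that is itself uncertain at so few counts. The 100 genes just passed the limit at an SD of 1.41, and the next gene also had 1.41. Of the 100, 52 were highest in replicate 4, 23 in replicate 3, 18 in replicate 2 and 7 in replicate 1, and 63 were lowest in replicate 1. Over all 14131 genes 21.4% were highest in replicate 4 and 61.3% were lowest in replicate 1.

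With a mean count of at least 20, a filter added after the data were seen, several genes of fat and epithelium stood at the top of the ranking, and 50 of its first 100 genes were 5000 bases or longer. Retn was first, followed by Thrsp, a regulator of fat synthesis, with 0.587, 0.383, 4.72 and 46.4 TPM, and Cyp2e1, a cytochrome of liver and fat, with 0.547, 0, 2.08 and 37.5 TPM. Cidec, a protein of lipid droplets, had 2.32, 1.56, 4.15 and 58.5 TPM, and Pck1, an enzyme of glyceride and glucose synthesis, 0.366, 0.448, 2.29 and 28.7 TPM. Car3, carbonic anhydrase 3, had 9.78, 18.5, 36.7 and 261 TPM, and Plin1, perilipin, 0.782, 0.255, 2.33 and 25.5 TPM. Areg, amphiregulin, a ligand of the EGF receptor, had 0.208, 0.204, 1.12 and 16.1 TPM. All of these genes were highest in replicate 4 and second highest in replicate 3.

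**Figure D5:**
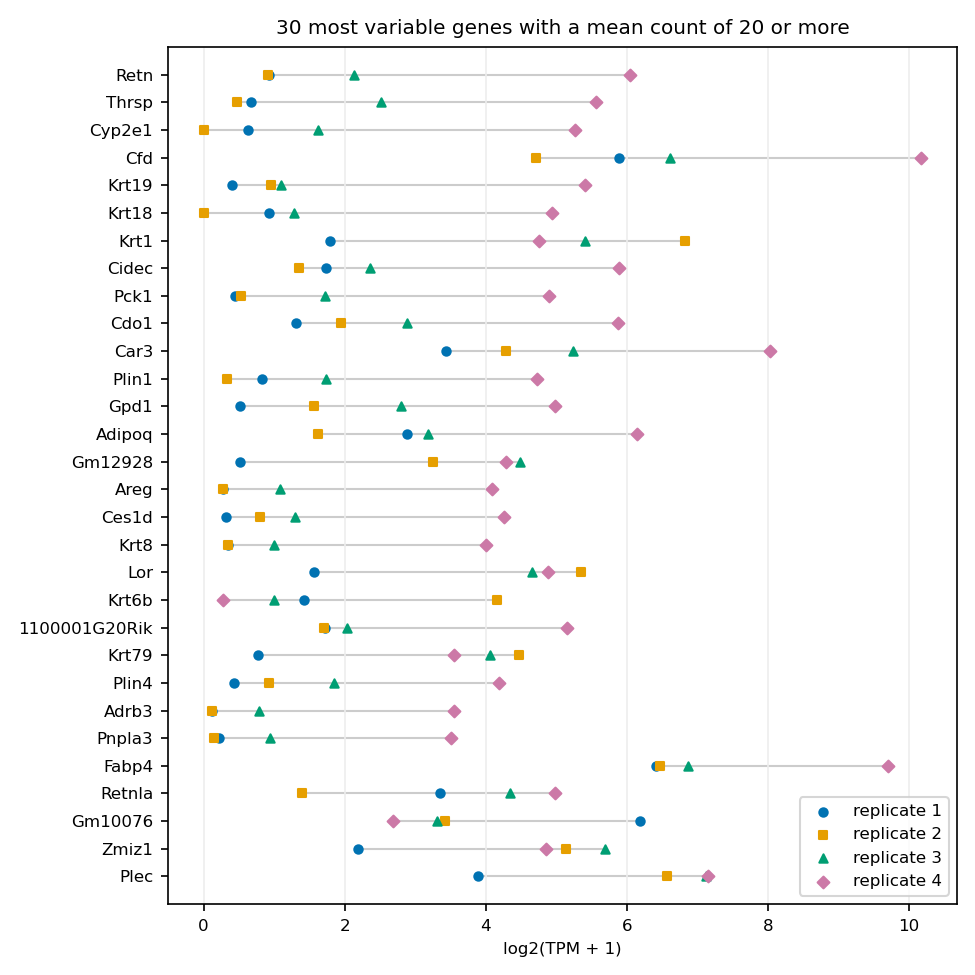
Level of the 30 most variable genes with a mean count of 20 or more as log2(TPM + 1) in each Fc control tumor, ordered from the largest SD. Replicate 4 is highest for the fat and simple epithelial genes such as Retn, Cfd and Krt19, replicate 2 for Krt1, Lor, Krt6b and Krt79, and replicate 1 lowest for Zmiz1 and Plec.

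The 100 most variable genes with enough counts fell into groups by the tumor in which they were highest. The 45 genes highest in replicate 4 had a median length of 1916 bases, included 8 adipocyte and 4 pan-epithelial list members and lay at a median of 14.2 times the median of the other 3 tumors. Of the 100 genes, 21 were in one of the lists, which were chosen with earlier results of these data known. Of the 14131 genes ranked without the count filter, 2.16% were in one of the lists. The 41 genes highest in replicate 3 had a median length of 8312 bases, 39 of them were at least 5000 bases long, and all 41 were lowest in replicate 1. Of all genes with this count, 18.1% were that long and the median length was 3023 bases. Zmiz1, a transcriptional coregulator, was one of them, with 3.57, 34.2, 50.5 and 28.0 TPM. Plec, a cytoskeletal linker, was also lowest in replicate 1, with 13.8, 94.3, 139 and 142 TPM, but was highest in replicate 4. The 11 genes highest in replicate 2 included 5 keratinocyte list members. The keratin Krt6b, of stressed epidermis, had 1.68, 16.8, 1.00 and 0.204 TPM, and Lor, loricrin of the cornified layer, had 1.97, 39.7, 24.1 and 28.7 TPM.

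By list, adipocyte genes had the largest median SD, 1.67, followed by pan-epithelial genes at 1.38 and, leaving aside the mammary list with 2 ranked members, keratinocyte genes at 1.08. Macrophage genes stood at 0.45, T cell genes at 0.57 and MHC class I genes at 0.35, beside the 0.41 of all genes. Interferon gamma response genes at 0.32 and glycolysis and hypoxia genes at 0.31 were among the most even lists. These medians describe the genes chosen for each list, and the adipocyte value rests on replicate 4. Of the 100 most variable genes of the unfiltered ranking, 8 were adipocyte list members with all tumors, 0 without replicate 4 and 2 with a pseudocount of 0.1.

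The most even genes with a mean of 10 TPM or more were taken from the other end of the ranking. Cct7, a subunit of the chaperonin that folds actin and tubulin, had 520, 529, 522 and 529 TPM. Psmc1, an ATPase of the proteasome, had 199, 194, 198 and 198 TPM, and Chmp3, of the ESCRT machinery, had 78.8, 79.5, 81.1 and 80.0 TPM. Sap18, a subunit of a histone deacetylase complex, had 11.9 ± 0.0716 TPM. Their SD on the log2 scale was 0.01 to 0.02, and they were chosen for it. For 9 of the 10 genes the SD was below that of counting error alone, at 0.01 against 0.10 for Sap18, so their order among themselves carries no meaning. Rab7l1, Fam32a, Chchd5, Rpl14-ps1, Poc1a and Gtl3 made up the rest of the 10 most even genes.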

How the data were processed

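Libraries of 12 tumors were each made from 0.5 ng total RNA with SMART-Seq v4 and Nextera XT, which do not keep strand, as single reads of 58 bases. The authors deposited raw counts per gene and TPM values that they computed from them. The submitters' processing notes name TopHat 1.4.1, HTSeq 0.4.1, Picard 1.134, SAMtools 1.2 and FastQC 0.11.3 with NCBIM37, whereas the methods of the study name another aligner, and which made the deposited values was not settled. The counts have 33018 lines and the TPM values 32792 lines. In the counts, 219 names stand on more than 1 line, and 25 names were turned into dates.

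Only the 4 Fc control columns were used. Replicates are separate tumors as labelled. The 39 gene lists (26 cell types, 13 programs, 381 genes, 6 under an older name and 2 with no line) and the members were chosen with earlier results of these data known. Named genes were the 30 most abundant, up to 4 highest members of each list and those with no count, the PD-1, CTLA-4 and CD28 axis, the 30 most variable and the 10 least variable with a mean of at least 10 TPM; other genes were named after their values were seen. Some genes that the rule selects are not reported here. Variability was the SD of log2(TPM + 1), with a pseudocount of 1, among genes with a mean of at least 1 TPM. Gene lengths were recovered from count over TPM. Python 3.11.15, pandas 2.3.3, NumPy 2.4.6, Matplotlib 3.10.9, R 4.3.3, edgeR 4.0.16 (dispersions as an alternative), blastn 2.17.0 and samtools 1.23.1 were used. The variability ranking and the length correction were tested on simulated data. Limits for a count of 0 take 3 counts and cover counting error only. Alternatives were another pseudocount, filters, scalings and measures of spread, a length correction and leaving out each tumor. Promoters came from RefSeq (GRCm38.p6), and none of their coordinates was mixed with NCBIM37.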

Additional observations from a re-analysis of the deposited data

Results flagged for a closer look

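In 5 of 39 lists and 18 of 209 named genes, 1 tumor stood apart from the other 3, in that its gap to the nearest tumor on the log2(TPM + 1) scale, as a share of the whole range, was above the 95% critical value of Dixon's test for 4 samples. Chance flags about 1 in 20 groups, and 7.96% of 14131 genes passed the value. The lists were chosen with earlier results of these data known. Some of the named genes were chosen for their spread or after their values were seen. The counts of lists and named genes therefore cannot be set against that rate. The shares were 0.838 for the pan-epithelial list and 0.849 for the mammary epithelial list, both with replicate 4 high, 0.851 for the cytotoxic effector list with replicate 3 low, 0.848 for the eosinophil and basophil list with replicate 4 low, and 0.833 for the sex-linked list with replicate 1 low, the last resting on Xist alone at the same 0.833. With the trend on gene length removed, the sex-linked list stood at 0.62, 0.75, 0.72 and 0.75 in replicates 1 to 4. Its range over the tumors fell from 0.45 to 0.14. The adipocyte list did not pass, at 0.778, since replicate 3 also lay above replicates 1 and 2.

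Replicate 4 was apart and high for Krt19 at 0.861, Fabp4 at 0.862, Csn3 at 0.879 and Wfdc18 (listed as Expi) at 0.901. Prox1 and Trbd1 each had a share of 1, since both were above 0 only in replicate 4. Replicate 3 was apart and low for Gzma at 0.850, Ccl5 at 0.883 and mt-Rnr2 at 0.860, and high for mt-Nd1 at 0.851.

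Replicate 1 was apart and low for Col1a1 at 0.895, Col1a2 at 0.893, Csf1r at 0.888, Mbp at 0.891 and Lgr5 at 0.860, and apart and high for Ldha at 0.909 and Pdpn at 0.866. Over all genes, replicate 1 stood apart and low in 724 genes and high in 158. Apart from these measures, lines whose gene names had been turned into dates held 0.224% of the Fc control counts and entered no list.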

How the results depend on the processing

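No paired analysis was possible because the 4 tumors form a single group. Over 48 results, 452 values under the alternatives stayed within a set limit and 61 moved by more. For counts of genes or lists the limit was 1.5 times the reported count, and otherwise 1 SD. That SD was taken between tumors for list levels and shares of TPM, and between pairs of tumors for correlations. For the median SD it was taken between the values left on omitting each tumor. Omitting 1 of 4 tumors cannot move a mean list level by 1 SD. All 39 lists therefore stayed in those settings by construction, which is no measure of stability. Genes detected numbered 11160 at a minimum of 5 TPM and 18161 at 0.1 TPM, against 14131 at 1 TPM. By CPM, 62 of the 100 most abundant genes stayed in the 100, which then held 15.7% of the total. Of the 100 most variable genes, 49 were shared with a pseudocount of 0.1, 50 with TMM-scaled CPM, 49 by coefficient of variation, 21 by edgeR tagwise dispersion and 51 with a mean count of 20 or more, an alternative added after the data were seen. Leaving out each tumor in turn, 55 to 83 were shared, with 55 without replicate 4 and 62 without replicate 1, and the median SD was 0.23 to 0.47. With a mean of 5 TPM or more, the lowest Pearson correlation of 2 tumors was 0.88. List levels moved by more than the spread for 20 of 39 lists with a pseudocount of 0.1, all down (the intestinal epithelial, B cell, plasma cell, eosinophil and basophil, mammary epithelial, platelet and sex-linked levels to below 0, since the log of a value under 1 is negative), for 19 with TMM-scaled CPM and for 11 with members under 0.1 TPM left out. The cause of these differences was not tested. With 4 tumors and under 20 counts for many low genes, depth limits what can be said of cell types below a few TPM.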

Other observations

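Several genes outside the naming rule, looked up after the data were seen, add to the myeloid genes and to the glycolysis and hypoxia genes. Whether the tumors were hypoxic was not tested. The inflammatory cytokine genes Il1b and Tnf had mean levels of 77.2 and 18.5 TPM, whereas Il10, an inhibitory cytokine, and Il6 had 2.21 and 1.58 TPM. Fcgr4, an activating Fc receptor of myeloid cells, had 275 TPM, Cd68, a lysosomal protein of macrophages, 227 TPM, and Mrc1, the mannose receptor, 24.5 TPM. Slc2a1, the glucose transporter, and Vegfa, the vascular growth factor, both induced by hypoxia, had 214 and 141 TPM and were lowest in replicate 1.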
